A study of Mus musculus with 31 samples.

Results

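Hormone-sensing luminal cells are the cells of the mammary ducts that carry the receptors for estrogen, progesterone and prolactin. They divide little themselves and pass the hormonal signal to neighbouring luminal and basal cells through secreted factors, and the transcription factors FOXA1 and GATA3 hold their program together with the estrogen receptor. In tumors of the basal-like kind this program is usually low. The 8 genes described here are 3 receptors (*Esr1*, *Pgr* and *Prlr*), 3 regulators of transcription (*Foxa1*, *Gata3* and *Cited1*), the paracrine ligand *Tnfsf11* and the estrogen target *Greb1*. They were chosen by symbol in the annotation of the array, which lists 15 probe sets of the 45037 kept for 7 of the 8 genes. *Prlr* was not analysed here.

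Each tissue sample had its own array: 4 came from control mammary glands, and K5ΔNβcat mice gave 5 small hyperplasias, 5 large ones and 11 tumors. In these mice the keratin 5 promoter drives a stabilised β-catenin without its N-terminus in basal cells, so the transgene is not aimed at luminal cells. Of the genes described here, *Gata3* and *Pgr* also had signals above background on every array of sorted basal cells. Those arrays carried signals of luminal markers as well, and which cells gave the signals was not tested. The remaining 6 arrays held basal cells sorted from control mice (3 samples) and from K5creMycL/L mice (3 samples), in which Cre under the same promoter deletes *Myc* in basal cells. The labels give the strain of every sample as C57BL6, the methods name a mixed 129SV/C57BL6 background, and neither gives the age of a sample. Each sorted sample was a pool of several mice. Nothing in the labels ties a tissue sample to an animal of its own, and p-values therefore rest on the variation seen among samples, which may be technical.

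Values are linear MAS5 signals, the summary of the probes of a gene that the authors computed on each array. Signals under 30 were taken as background, after the cut-off of the methods. Between 46.2% and 51.9% of probe sets reached 30 on a tissue array. Differences are log2 differences of the signal plus 16 from limma (adjusted p over all probe sets tested in a comparison), which understate the change of a dim gene. A gene stands by its brightest probe set. RNA was taken from whole tissue, so fewer cells of a type and less RNA per cell cannot be told apart. With only 4 control arrays, precision is limited by array number.

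The tissue labels were checked against markers of cell types. Luminal epithelium markers were present in every group: the summed signal of 8 of them (*Krt8*, *Krt18*, *Krt19*, *Epcam*, *Cldn3*, *Cldn4*, *Cldn7* and *Elf3*) lay at 5174 to 8180 for control tissue, at 5531 to 9548 and 3649 to 6866 for small and large hyperplasias, and at 2798 to 8387 for tumors. Adipocyte markers (7 genes) summed to 48522 to 54505, 24768 to 33134, 19728 to 25003 and 1335 to 6732 in the same order, and *Lep* was below 30 in all 11 tumors. Basal markers (6 genes) went the other way, with 1205 to 1651 for control tissue and 9572 to 14781 for tumors.

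Promoters are shown for *Esr1* and *Foxa1*, a receptor gene and the gene of a factor that opens chromatin for it, because both fell in tumors and varied together from tumor to tumor. They are the 250 bases before a start site on the gene's strand (1 of 2 listed for *Esr1*, the single one listed for *Foxa1*), from RefSeq on GRCm38.p6, at chr10:4611739-4611988 on the plus strand and chr12:57546112-57546361 on the minus strand. Capitals mark a forkhead motif, TGTTTGC or TGTTTAC, read on the opposite strand.
Esr1: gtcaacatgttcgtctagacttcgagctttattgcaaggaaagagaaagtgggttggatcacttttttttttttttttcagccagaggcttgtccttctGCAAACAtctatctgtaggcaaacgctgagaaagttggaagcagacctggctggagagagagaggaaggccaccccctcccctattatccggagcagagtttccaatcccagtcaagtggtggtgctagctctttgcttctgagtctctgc
Foxa1: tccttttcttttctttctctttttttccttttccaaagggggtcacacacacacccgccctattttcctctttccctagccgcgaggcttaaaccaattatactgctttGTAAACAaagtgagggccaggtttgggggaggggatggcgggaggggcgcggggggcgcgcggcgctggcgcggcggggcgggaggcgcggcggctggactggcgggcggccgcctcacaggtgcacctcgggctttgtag
The motif starts 151 bases before this start site of *Esr1* and 141 bases before that of *Foxa1*. Of 32851 mouse promoters of this length, 3.17% held TGTTTAC and 4.3% held TGTTTGC on either strand, and a promoter can hold both. Among the 14 promoters listed for the 8 genes, TGTTTAC was found in 2, one of *Foxa1* and one of *Prlr*, and TGTTTGC in 1, the one of *Esr1* printed above. The other promoter listed for *Esr1* does not hold it, and the one printed was chosen because it does. None of the 14 held the GATA motif AGATAA (9.99% of all promoters) or the full palindromic estrogen response element (0.0639%). A match is a string of letters and no measured binding site.

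In tumors *Esr1*, *Pgr*, *Foxa1* and *Cited1* were low, while *Gata3* was high. Of the 7 genes measured, 5 were bright enough to be tested against control tissue, and 4 of these fell and 1 rose, with a median log2 difference of -2.35. Over all 11829 genes tested, 36.8% fell, 34.9% rose and the median was -0.02. Among the same 5, large hyperplasias had 2 lower and 1 higher (over all genes 22.9% and 26.8%), and small hyperplasias had 1 lower and 1 higher (15.3% and 19.3%).

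**Figure D1:**
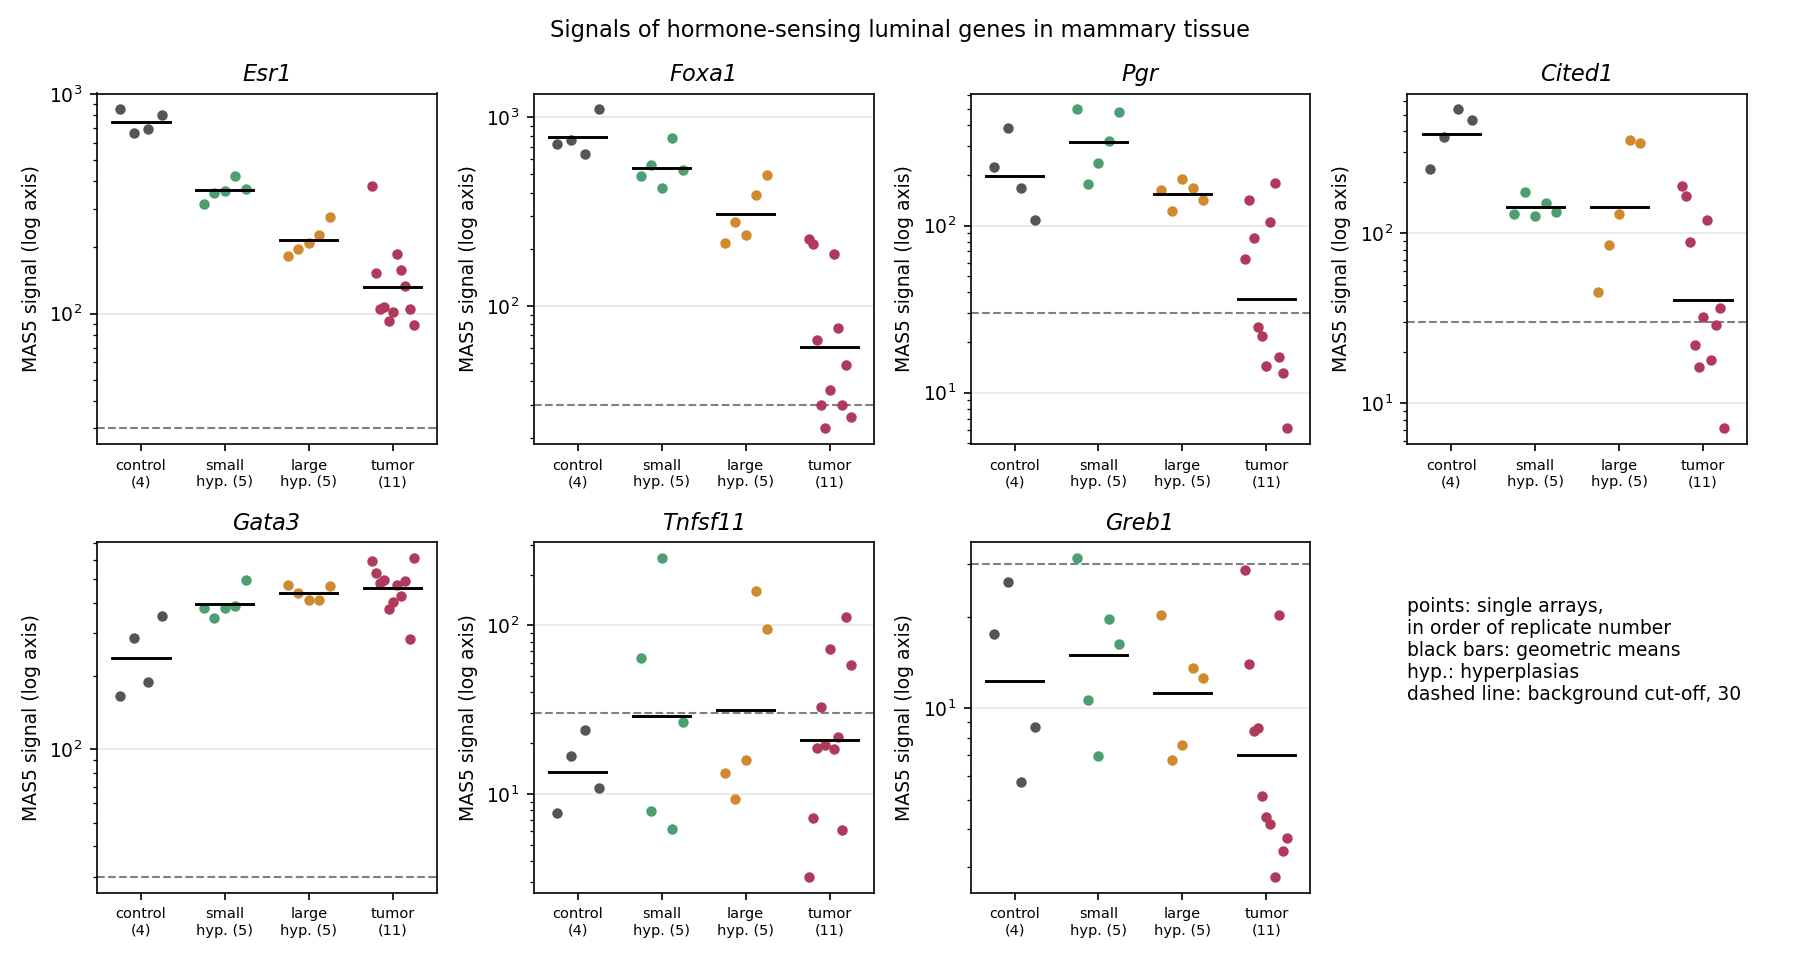
MAS5 signals (log axis) of the 7 measured genes in 4 control tissues, 5 small hyperplasias, 5 large hyperplasias and 11 tumors (points: arrays in order of replicate number; bars: geometric means; dashed line: background cut-off of 30). *Esr1* and *Foxa1* were below every control tissue in all 11 tumors, *Gata3* was above every control tissue in 10 of them, and *Greb1* reached 30 on a single array.

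*Esr1* encodes estrogen receptor α, the nuclear receptor that defines hormone-sensing cells. Its signal was 850, 661, 693 and 804 in the 4 control tissues, 316, 354, 362, 425 and 370 in the 5 small hyperplasias and 182, 197, 210, 227 and 275 in the 5 large ones. The 11 tumors ranged from 89.1 to 381 with a median of 107. Every hyperplasia and every tumor was below every control tissue, and small and large hyperplasias did not overlap. Of all genes, 11.6% were lower in every small hyperplasia than in every control tissue, 19.3% in every large hyperplasia and 23.7% in every tumor, and 5.56% were lower in every large than in every small hyperplasia. Against control tissue, *Esr1* fell by 1.01 in small hyperplasias (SE 0.25, adjusted p = 0.0039 from limma), by 1.72 in large hyperplasias (SE 0.25, adjusted p = 6.0e-06) and by 2.35 in tumors (SE 0.22, adjusted p = 9.1e-10). The order of the levels was thus control tissue, small hyperplasias, large hyperplasias and tumors.

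The neighbours in this order were set against each other directly. From small to large hyperplasias the log2 difference of *Esr1* was -0.71 (SE 0.24, adjusted p = 0.060 from limma), which did not pass, although 9.65% of all genes did. It passed with quantile normalization (adjusted p = 0.042) and when only both kinds of hyperplasia were fitted (adjusted p = 0.0033). From large hyperplasias to tumors *Esr1* fell by 0.63 (SE 0.20, adjusted p = 0.011), and tumor 1, at 381, was above every large hyperplasia. A dimmer probe set of *Esr1* had signals of 128, 95.5, 127 and 154 in control tissue, 97.8, 93.3, 114, 113 and 45.7 in small hyperplasias, 18.4, 42.6, 42.6, 53.0 and 62.2 in large hyperplasias and 22.3 to 118 (median 36.5) in tumors. It fell by 1.30 in tumors and by 1.29 in large hyperplasias against control tissue, and by 0.87 from small to large hyperplasias (adjusted p = 0.0496), where the brighter probe set did not pass. Its log2 differences were -0.42 in small hyperplasias against control tissue (adjusted p = 0.30) and -0.01 in tumors against large hyperplasias (adjusted p = 0.97). The third probe set of *Esr1* stayed below 30 on every tissue array.

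*Pgr* encodes the progesterone receptor, itself a target of the estrogen receptor. Its signal was 224, 381, 168 and 108 in control tissue, 494, 178, 236, 320 and 479 in small hyperplasias and 164, 122, 190, 168 and 141 in large hyperplasias. In tumors it ranged from 6.13 to 179 with a median of 24.8, and it was below 30 in 6 of 11. The hyperplasias overlapped control tissue, with 2 small ones above the highest control and all 5 large ones within the control range. *Pgr* fell by 1.88 in tumors (SE 0.46, adjusted p = 8.4e-04), where 9 tumors were below every control tissue and tumors 2 and 8 were within the control range. Its log2 differences of 0.63 in small hyperplasias (SE 0.53, adjusted p = 0.38) and -0.33 in large hyperplasias (SE 0.53, adjusted p = 0.63) did not pass. Against large hyperplasias, *Pgr* fell by 1.54 in tumors (SE 0.42, adjusted p = 0.0037), and against small hyperplasias by 2.50 (SE 0.42, adjusted p = 2.4e-05). The other probe sets of *Pgr* were below 30 on every tissue array.

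*Foxa1* encodes a forkhead factor that opens chromatin for the estrogen receptor. It had signals of 720, 762, 642 and 1103 in control tissue, 488, 557, 423, 779 and 524 in small hyperplasias and 215, 278, 239, 390 and 493 in large hyperplasias. In tumors it ranged from 22.5 to 228 with a median of 48.7. The highest tumor was far below the lowest control tissue, and no tumor reached the lowest small hyperplasia, as was so for 14.7% of all genes. *Foxa1* fell by 3.31 in tumors against control tissue (SE 0.41, adjusted p = 9.7e-08), the largest fall among the 5 genes tested. It also fell by 2.00 against large hyperplasias (SE 0.38, adjusted p = 1.0e-04) and by 2.79 against small ones (SE 0.38, adjusted p = 1.1e-06).

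In hyperplasias the change of *Foxa1* was less secure. All 5 large hyperplasias were below every control tissue and *Foxa1* fell there by 1.31 (SE 0.47, adjusted p = 0.024). The call was lost without large hyperplasia 1 (adjusted p = 0.055), large hyperplasia 3 (0.052) or control tissue 4 (0.073), and with no offset before the log (0.056). In small hyperplasias 4 of 5 were below every control tissue, and the log2 difference of -0.53 did not pass (SE 0.47, adjusted p = 0.41), though it did when only these 2 groups were fitted (adjusted p = 0.044).

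*Cited1* encodes a coregulator that binds the estrogen receptor. Its signal was 240, 372, 537 and 468 in control tissue, 130, 175, 127, 151 and 133 in small hyperplasias and 45.4, 85.3, 130, 356 and 341 in large hyperplasias. In tumors it ranged from 7.14 to 189 with a median of 32.2. Large hyperplasias 4 and 5 stayed within the control range while the other 3 were below it, and every small hyperplasia and every tumor was below every control tissue. *Cited1* fell by 2.69 in tumors (SE 0.49, adjusted p = 3.4e-05). In hyperplasias its log2 differences were -1.35 in small ones (SE 0.57, adjusted p = 0.071) and -1.29 in large ones (SE 0.57, adjusted p = 0.064), neither of which passed. Both passed when only the 2 groups compared were fitted (adjusted p = 2.6e-04 and 0.034), and the difference in large hyperplasias passed without large hyperplasia 4 (adjusted p = 0.029) or 5 (adjusted p = 0.031). Against both kinds of hyperplasia *Cited1* fell in tumors, by 1.39 from large ones (SE 0.46, adjusted p = 0.012) and by 1.34 from small ones (SE 0.46, adjusted p = 0.016). The first of these calls was lost without large hyperplasia 4 (adjusted p = 0.060) or 5 (adjusted p = 0.058).

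*Gata3* encodes a zinc finger factor that luminal cells need for their differentiation, and it went the other way. Its signal was 165, 285, 189 and 352 in control tissue, 379, 347, 378, 387 and 496 in small hyperplasias and 470, 436, 410, 411 and 468 in large hyperplasias. In tumors it ranged from 283 to 609 with a median of 481. All 5 large hyperplasias (as for 22.4% of all genes), 4 of 5 small hyperplasias and 10 of 11 tumors were above every control tissue. *Gata3* rose by 0.70 in small hyperplasias (SE 0.18, adjusted p = 0.0058), by 0.84 in large hyperplasias (SE 0.18, adjusted p = 6.1e-04) and by 0.91 in tumors (SE 0.16, adjusted p = 2.2e-05). By the rule of the methods, a ratio of medians over 2, it was called in tumors but in neither kind of hyperplasia. Among the K5ΔNβcat groups no difference of *Gata3* passed, and its log2 differences were 0.07 in tumors against large hyperplasias (SE 0.15, adjusted p = 0.73), 0.21 in tumors against small hyperplasias (SE 0.15, adjusted p = 0.24) and 0.15 in large against small hyperplasias (SE 0.17, adjusted p = 0.64).

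**Figure D2:**
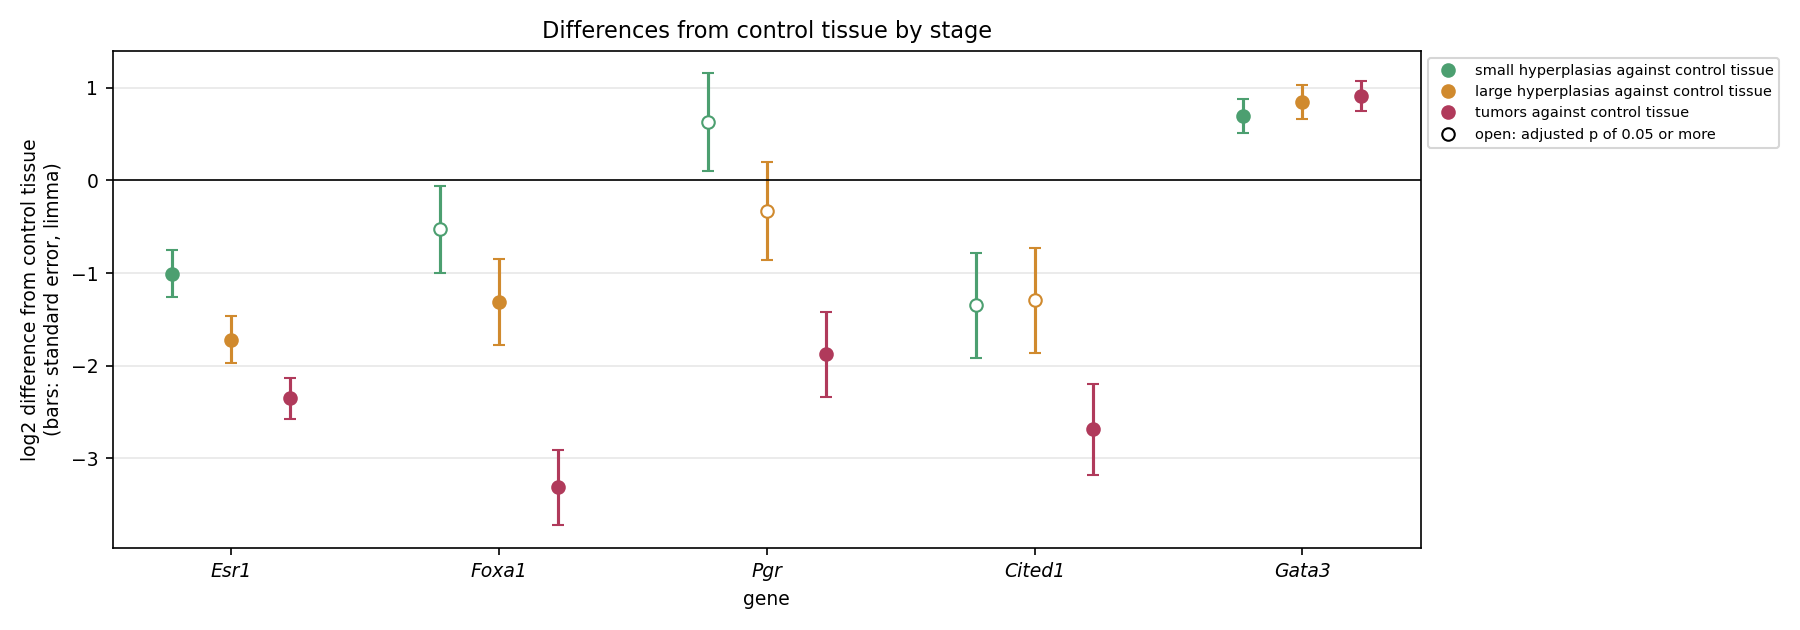
Differences from control tissue in log2(signal + 16) of the 5 genes tested, for small hyperplasias, large hyperplasias and tumors (points: limma estimates; bars: standard errors; filled points: adjusted p under 0.05). *Esr1* was lower and *Gata3* higher in all 3 groups, while *Pgr* and *Cited1* passed in tumors alone in this fit of 25 arrays.

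The genes that fell in tumors against control tissue also fell against hyperplasias. Of the 5 genes tested, 4 fell and 0 rose in tumors against large hyperplasias (31.9% and 22.7% of all genes), and the same 4 fell against small hyperplasias (32% and 25.7% of all genes). Both comparisons use the same tumors and are not independent. Between large and small hyperplasias none of the 5 passed (over all genes 4.09% were higher and 5.56% lower), with *Esr1* alone at an unadjusted p under 0.05 (p = 0.0066 from limma). The log2 differences there were -0.96 for *Pgr* (adjusted p = 0.23), -0.79 for *Foxa1* (adjusted p = 0.27) and 0.05 for *Cited1* (adjusted p = 0.96).

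*Tnfsf11* encodes RANKL, the ligand by which hormone-sensing cells drive their neighbours to divide under progesterone. It was too dim to be tested, with a median below 30 in every group. Its signal was 7.74, 16.7, 24.0 and 10.8 in control tissue, 64.0, 7.92, 251, 6.21 and 26.5 in small hyperplasias and 13.2, 9.37, 15.99, 160 and 94.7 in large hyperplasias. In tumors it ranged from 3.22 to 112 with a median of 19.4. All control tissues were below 30, while 2 small hyperplasias, 2 large hyperplasias and 4 of 11 tumors (tumors 4, 6, 10 and 11) were above it. Its other probe set was highest in the same hyperplasias, with 113 in small hyperplasia 3 and 51.0 and 31.3 in large hyperplasias 4 and 5, and among tumors in tumor 10 at 31.8. With no filter on low signals, *Tnfsf11* was not called in any comparison (log2 difference 0.46 in tumors against control tissue, adjusted p = 0.52). Large hyperplasias 4 and 5, the ones with *Tnfsf11* over 30, were also the ones that kept *Cited1* within the control range.

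*Greb1*, a target gene of the estrogen receptor that also encodes a cofactor of it, was at background throughout. Its signals of 17.6, 26.3, 5.73 and 8.72 in control tissue and 2.78 to 28.6 in tumors (median 5.16) were all below 30, and the highest signal on a tissue array was 31.4 in small hyperplasia 1. None of its 4 probe sets was bright enough to be tested. No direction can be read from these values.

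The tumors differed from each other in how much of the hormone-sensing signal they kept. Tumors 1, 2 and 7 had *Foxa1* at 228, 212 and 190, and the other 8 tumors had 22.5 to 76.2. The same 3 tumors had the highest *Cited1* of all tumors (189, 166 and 120). *Esr1* was highest in tumors 1 and 7 (381 and 187), with tumor 8 at 157 and tumor 2 at 152. *Pgr* did not follow this order exactly: it was highest in tumor 8 (179), then in tumors 2, 7 and 3 (142, 105 and 84.5), and tumor 1 had 62.9. At the other end, tumor 11 had the lowest *Esr1*, *Pgr* and *Cited1* (89.1, 6.13 and 7.14) and, at 609, the highest *Gata3*. Even the tumors that kept the most were below every control tissue in *Esr1*, *Foxa1* and *Cited1*.

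**Figure D3:**
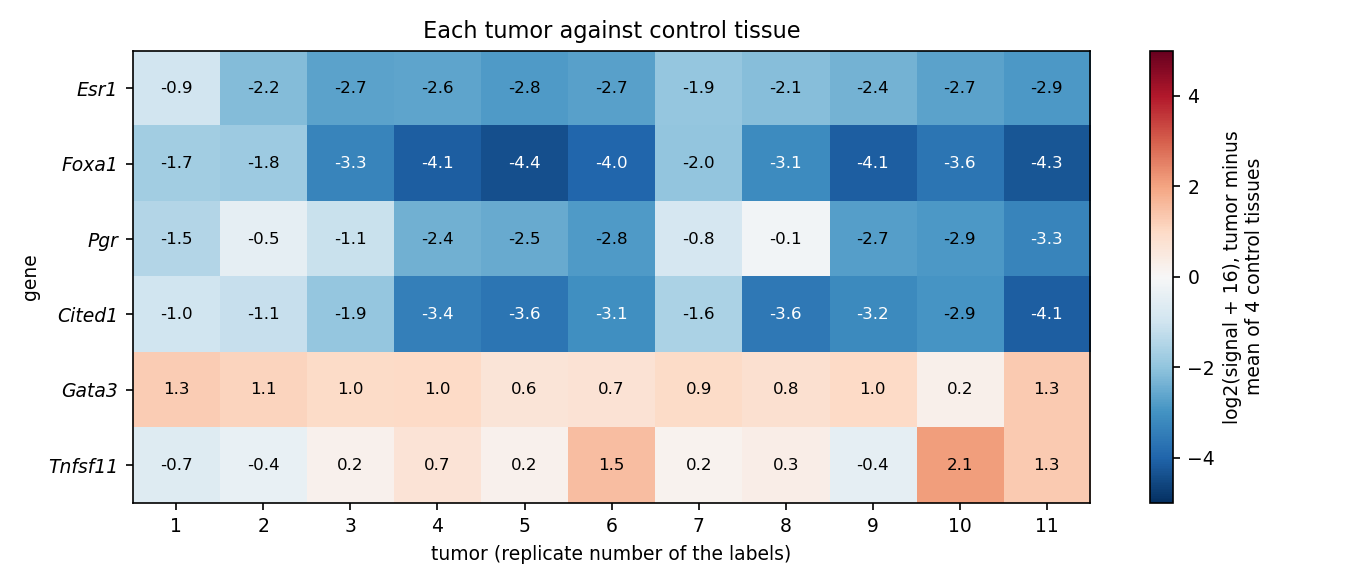
Log2(signal + 16) of each of 11 tumors minus the mean of the 4 control tissues, for 6 genes (blue: lower, red: higher). Tumors 1, 2 and 7 are the palest in *Foxa1*, *Esr1* is lower and *Gata3* higher than the control mean in every tumor, and *Tnfsf11*, mostly below 30, is mixed.

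Whether the genes varied together was asked over the 11 tumors in 21 pairs, each with a permutation test of 100000 resamples adjusted over the pairs. Pearson's r passed in 5 pairs. *Foxa1* and *Cited1* had r = 0.90 (adjusted p = 0.0072 by permutation; Spearman's rho 0.85, adjusted p = 0.039), and *Esr1* and *Foxa1* had r = 0.81 (adjusted p = 0.0072; rho 0.81, adjusted p = 0.044). The 2 tumors farthest from the median of the first-named gene of a pair were then left out. This gave r = 0.79 for the former pair (permutation p = 0.013) and 0.72 for the latter (p = 0.021). *Pgr* and *Foxa1* had r = 0.76 (adjusted p = 0.040 by permutation, rho 0.69, adjusted p = 0.094). Without tumors 2 and 8, the farthest in *Pgr*, r was 0.81 (permutation p = 0.012), with tumors 1 and 7, which stand apart in *Foxa1*, kept. These p without the 2 farthest tumors are unadjusted, and adjusted over the 21 pairs 0 passed.

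The other 2 pairs were *Esr1* with *Cited1* and *Tnfsf11* with *Greb1*. *Esr1* and *Cited1* had r = 0.71 (adjusted p = 0.040 by permutation; rho 0.65, adjusted p = 0.12), which went to 0.44 (permutation p = 0.23) without tumors 1 and 7 and so rests on those samples. *Tnfsf11* and *Greb1* had r = -0.74 (adjusted p = 0.040 by permutation, rho -0.74, adjusted p = 0.089). Without tumors 6 and 10, the farthest in *Tnfsf11*, r was -0.79 (unadjusted permutation p = 0.012). Both were mostly at background, and their next brightest probe sets gave 0.17. In tumors 3 to 6 and 8 to 11, that is without the 3 tumors that stood apart in *Foxa1*, r was 0.55 for *Foxa1* and *Cited1*, 0.59 for *Esr1* and *Foxa1* and 0.82 for *Pgr* and *Foxa1*. These values are a description, since leaving out tumors by their *Foxa1* narrows its range. *Gata3* had no pair that passed, with r = 0.40 against *Esr1* and 0.32 against *Foxa1* (adjusted p = 0.27 and 0.40 by permutation).

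**Figure D4:**
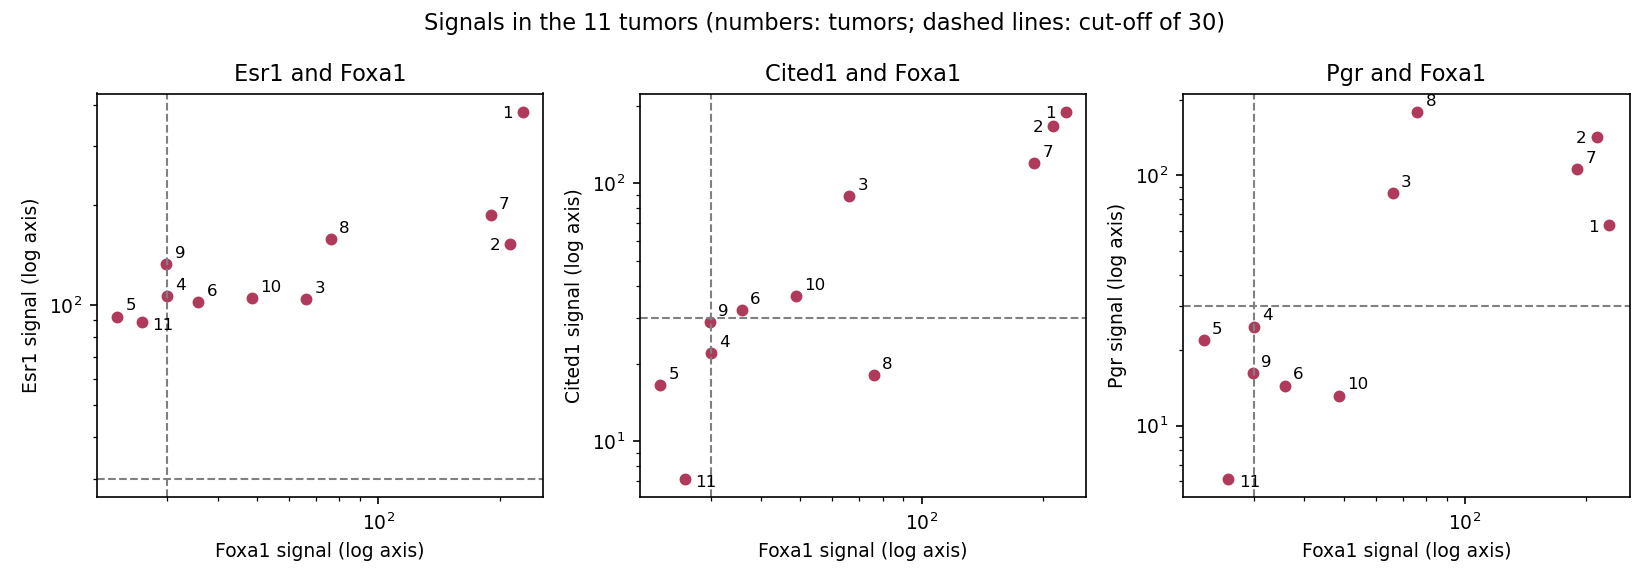
MAS5 signals (log axes) of *Esr1*, *Cited1* and *Pgr* against *Foxa1* in the 11 tumors (points: tumors, numbered as in the labels; dashed lines: cut-off of 30). Tumors 1, 2 and 7 lie apart at the right of each panel, and tumor 8 has the highest *Pgr* but a *Cited1* of 18.0.

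The groups also differed in markers of other cells, whose part in the results was not tested. Of the 8 luminal epithelium markers, 2 rose in tumors against control tissue (*Cldn4* and *Cldn7*), 2 fell (*Krt19* and *Cldn3*) and 4 did not pass, with a median log2 difference of -0.06. All 7 adipocyte markers fell (median -6.39), all 5 endothelial markers fell (median -0.68) and all 6 basal markers rose (median 2.81). In large hyperplasias 1 luminal marker rose and none fell (median -0.45), 5 of 7 adipocyte markers fell (median -1.76), 5 of 6 basal markers rose (median 2.37) and all 6 T cell markers tested rose (median 1.26), while all 5 endothelial markers fell (median -1.10). In small hyperplasias 2 luminal markers rose and none fell (median 0.20), 3 of 7 adipocyte markers fell (median -0.997) and 5 of 6 basal markers rose (median 1.70), and 3 of 5 endothelial markers fell (median -0.46). Of 8 markers of all epithelia, 6 rose in tumors (median 1.56), 7 in large hyperplasias (median 1.01) and 7 in small ones (median 0.94), and none fell.

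The genes were also set against the luminal markers of the same array. Relative to the mean log2 signal of the 8 luminal markers, the difference between tumors and control tissue was -2.36 for *Esr1*, -3.32 for *Foxa1*, -1.88 for *Pgr*, -2.70 for *Cited1* and 0.90 for *Gata3*. On this scale *Esr1*, *Foxa1* and *Cited1* were below every control tissue in 11 of 11 tumors, *Pgr* in 9, and *Gata3* was above every control tissue in 11. In large hyperplasias the relative differences were -1.45 for *Esr1*, -1.05 for *Foxa1* and -1.03 for *Cited1*, and in small hyperplasias -1.29, -0.81 and -1.63. For *Pgr* they were -0.06 in large and 0.34 in small hyperplasias, and for *Gata3* 1.11 and 0.41. *Gata3* was above every control tissue in 5 large but only 3 small hyperplasias, and *Cited1* was below every control tissue in 4 large ones. These values are a description. Several luminal markers are shared by luminal cells with and without hormone receptors. The 8 markers also summed to 6786 to 10409 in sorted basal cells, so this scale is no measure of luminal cell number.

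**Figure D5:**
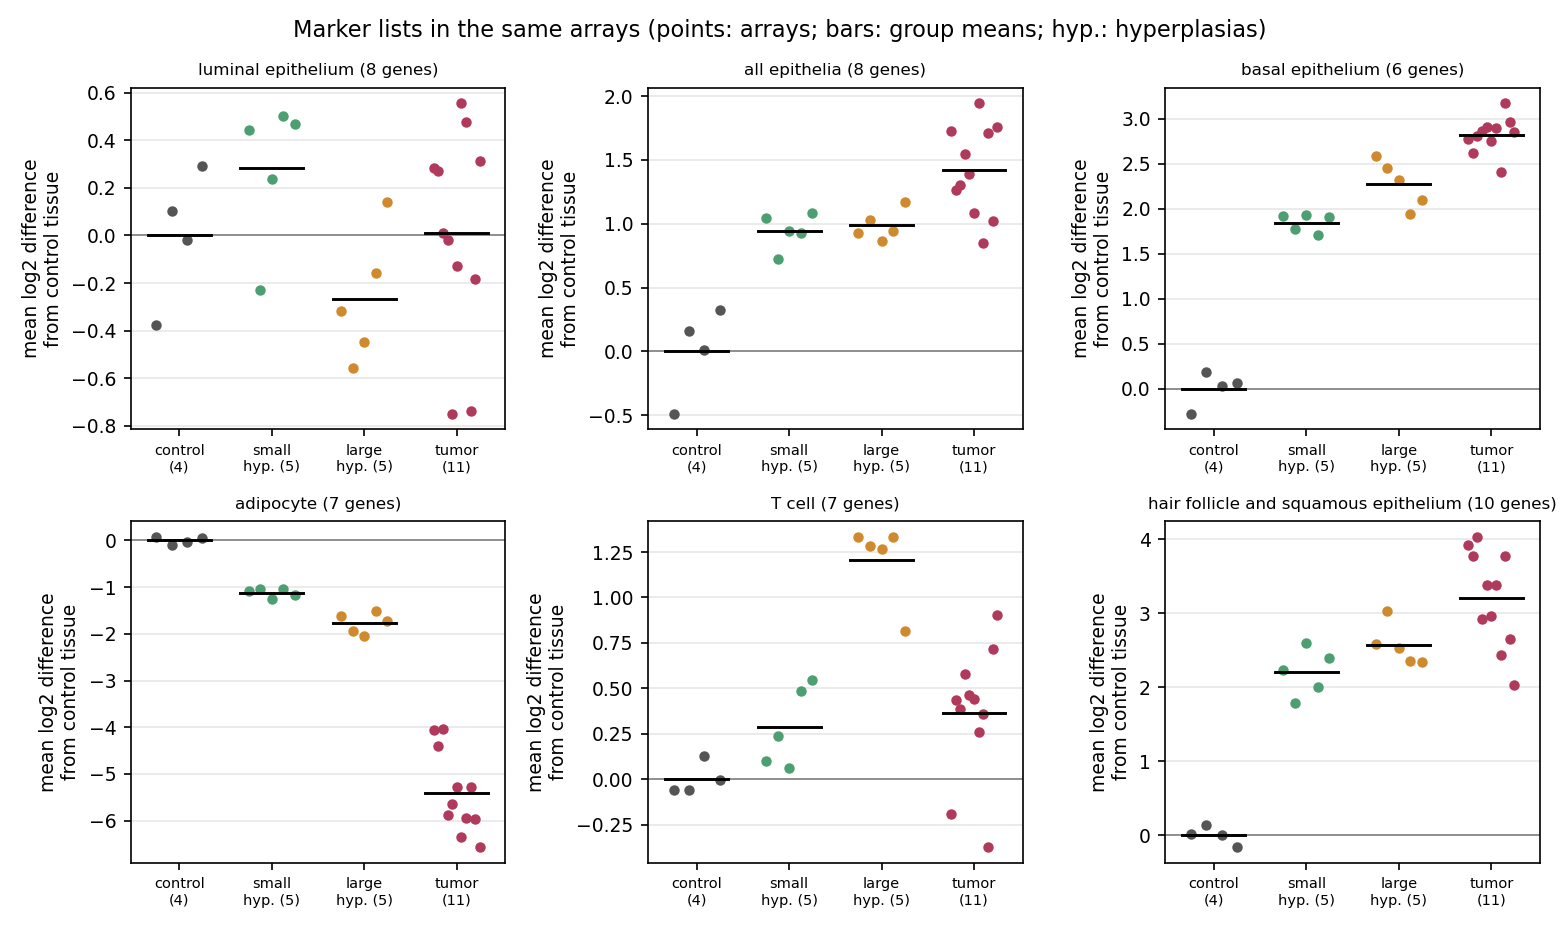
For each of 25 tissue arrays, log2 differences from control tissue averaged over 6 marker lists (points: arrays; bars: group means). Luminal epithelium markers overlap control tissue in tumors, while basal and squamous markers lie above and adipocyte markers below every control tissue.

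Across the 11 tumors, 6 of the genes were set against 9 marker lists, 54 relations in all, and none passed (lowest adjusted p = 0.15 by permutation, Pearson and Spearman alike). The largest r were 0.75 for *Tnfsf11* with T cell markers, 0.75 for *Pgr* with luminal progenitor markers, 0.74 for *Cited1* with hair follicle and squamous markers and -0.73 for *Tnfsf11* with the latter. The summed signal of luminal epithelium markers was 6640, 6982 and 7234 in tumors 1, 2 and 7, but 8387 in tumor 8 and as low as 2798 in tumor 5.

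Other genes of estrogen receptor signaling moved in both directions in tumors. Of 11 cofactor and receptor genes, 8 are in the annotation and 6 were tested, and 2 rose and 2 fell, beside 34.9% and 36.8% of all genes. *Nrip1*, which encodes the corepressor RIP140 and is a target of the receptor, went from 1297 ± 145 (SD, n = 4) in control tissue to 539 ± 109 (SD, n = 11) in tumors and fell by 1.26 (SE 0.14, adjusted p = 1.1e-08). *Ncoa1*, a coactivator gene of nuclear receptors, fell by 0.92 (adjusted p = 8.6e-07). *Tfap2c*, which encodes AP-2γ, a factor of luminal cells that binds beside the estrogen receptor, rose by 1.27 (adjusted p = 8.3e-05), and *Ncoa3*, another coactivator gene, rose by 0.25 (adjusted p = 0.045). *Nrip1* fell and *Tfap2c* rose in both kinds of hyperplasia as well, by 0.94 and 0.95 in large ones (adjusted p = 2.8e-05 and 0.0088) and by 0.67 and 0.93 in small ones (adjusted p = 0.0022 and 0.016). The signals of *Esr2*, the gene of estrogen receptor β, averaged 3.72 in tumors and 10.54 in control tissue, too low to be tested.

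Among paracrine genes, 2 of 4 tested rose in tumors and none fell (34.9% and 36.8% over all genes), too few to set apart from that background. *Tnfrsf11b* encodes osteoprotegerin, the decoy receptor that binds RANKL. It was below 30 in every control tissue and at least 3.66-fold higher in tumors, 3.38-fold in large hyperplasias and 2.65-fold in small hyperplasias (adjusted p = 2.5e-07, 1.3e-05 and 1.6e-04). *Wnt4*, a secreted signal that progesterone induces in hormone-sensing cells, went from 106 ± 20.3 (SD, n = 4) in control tissue to 179 ± 33.2 (SD, n = 11) in tumors and rose by 0.68 (adjusted p = 1.4e-04), and by 0.45 in small hyperplasias (adjusted p = 0.037). In large hyperplasias its log2 difference was 0.35 and did not pass (adjusted p = 0.077). *Tnfrsf11a*, the gene of RANK, the receptor of RANKL, had a log2 difference of 0.08 in tumors (adjusted p = 0.71).

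Among 8 genes of prolactin and growth hormone signaling, 3 fell and 2 rose in tumors (36.8% and 34.9% over all genes). *Ghr*, the growth hormone receptor gene, fell by 3.96 (SE 0.19, adjusted p = 2.1e-15), *Stat5a* fell by 1.19 (adjusted p = 4.6e-06) and *Stat5b* by 1.01 (adjusted p = 4.3e-09). The latter encode the transcription factors that prolactin activates. *Socs3*, an inhibitor gene of cytokine signaling, rose by 2.99 (adjusted p = 8.7e-14). In large hyperplasias *Ghr* fell by 1.67 (adjusted p = 8.0e-07) and *Socs3* rose by 1.42 (adjusted p = 2.7e-06), while *Stat5a* (-0.44, adjusted p = 0.10) and *Stat5b* (-0.20, adjusted p = 0.17) did not pass. *Prom1*, which encodes a surface protein of hormone-sensing cells, fell by 0.86 in tumors (adjusted p = 0.0051) and had log2 differences of -0.44 in large hyperplasias (adjusted p = 0.24) and 0.45 in small ones (adjusted p = 0.26).

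The 5 genes most like *Esr1* over the 25 tissue arrays, among 11824, were *Inca1* (Pearson r = 0.95), *Ffar4* (0.94), *Etfa* (0.94), *Hibadh* (0.94) and *1110032A03Rik* (0.94). All 5 fell in tumors against control tissue, with log2 differences of -2.11, -2.53, -1.64, -1.81 and -2.57 in this order. These arrays share the 4 groups, so the correlations largely carry the differences between groups. Adipocyte markers had the same order of groups, with median log2 differences of -0.997 in small hyperplasias, -1.76 in large ones and -6.39 in tumors. Their part in these correlations was not tested, and whole-tissue signal does not assign *Esr1* to a cell type. Over the 11 tumors alone, the genes most like the mean of the standardized 7 genes were *Alg3* (r = 0.92), *Tlcd4* (0.91), *Epb41l5* (0.90), *Fgb* (0.89) and *Ppip5k1* (0.89). This mean weighs the 7 genes equally, with *Greb1* below 30 in every tumor, *Tnfsf11* below 30 in most and *Gata3*, which rose. The similar genes were picked as the highest of 11824 over 11 samples, and no test was made.

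Sorted basal cells were compared only with each other, because their RNA was amplified by another kit. *Myc* had signals of 1479, 1677 and 1869 in control and 141, 428 and 42.3 in K5creMycL/L basal cells. Their basal markers summed to 14650 to 21780 and all of their T cell markers but *Cd4* were below 30 on every array, but luminal epithelium markers summed to 6786 to 10409, with *Epcam*, *Krt8* and *Krt18* among the brightest. *Foxa1* was below 30 in all 6 samples (25.04, 7.76 and 1.32 in control cells, 14.4, 1.96 and 21.6 in *Myc*-deficient cells). *Gata3* was well above it, at 407, 339 and 471 in control cells and 408, 400 and 186 in *Myc*-deficient cells. *Pgr* had 84.8, 39.3 and 116 in control cells and 104, 36.5 and 111 in *Myc*-deficient cells.

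No gene passed the test between *Myc*-deficient and control basal cells (0% of 9502 genes by limma, with 680 at an unadjusted p under 0.05). This fit did not pair samples by replicate number, and *Myc* itself did not pass in it. The log2 differences were -0.46 for *Esr1* (SE 0.55, adjusted p = 0.90), 0.04 for *Pgr* (SE 0.48, adjusted p = 0.99), 0.74 for *Cited1* (SE 0.55, adjusted p = 0.84) and -0.34 for *Gata3* (SE 0.35, adjusted p = 0.89). *Esr1* stands here by its dimmer probe set in tissue, which was the brightest in sorted cells. It had 131, 37.8 and 84.3 in control cells and 76.4, 90.7 and 15.1 in *Myc*-deficient cells. The probe set used for tissue had a log2 difference of 0.05 (adjusted p = 0.99 from limma) and the third 0.39 (adjusted p = 0.90). *Cited1* was below 30 in all 3 control samples (10.2, 12.6 and 24.1) and had 72.3, 4.73 and 60.6 in *Myc*-deficient samples, so that the groups overlapped. *Foxa1*, *Tnfsf11* and *Greb1* were too dim to be tested. With 3 samples a group these data leave wide intervals, and they do not show that *Myc* has no effect on these genes.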

How the data were processed

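The deposited intensity values are MAS5 signals that the authors made, per the labels with Affymetrix Expression Console. No source used here gives its version. The arrays were Affymetrix Mouse Genome arrays. For tissue the Affymetrix one-cycle labelling kit was used, and for sorted cells NuGEN amplification. From 45101 probe sets, 64 controls were left out. A single symbol was listed for 34945 probe sets (34741 matched by gene ID to RefSeq), several for 932 and none for 9160, and no gene was named from a probe set with several.

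Signals were analysed as log2(signal + 16) with limma 3.58.1 in R 4.3.3 (lmFit, contrasts.fit and eBayes with trend), the 25 tissue arrays in 1 fit and the 6 sorted-cell arrays in another. A probe set entered a test if 1 of both group medians reached 30, and calls were made under a Benjamini-Hochberg adjusted p of 0.05. Each gene stands by the probe set that is brightest on average over the fitted arrays. A group with no array at 30 or more gives a fold only as a bound, with 30 in its place. Pairs over tumors were tested two-sided with 100000 permutations (Python 3.11.15, numpy 2.4.6). The code was tested on simulated data.

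The genes and lists were chosen with earlier results of these data known. Named are the 8 members in every comparison, up to 4 called genes of each pathway list with the largest difference in tumors against control tissue, and the 5 most alike genes. Genes named beyond this rule, such as *Esr2* and *Tnfrsf11a*, and *Prom1* as the single gene of its list, were chosen for their role. Replicate numbers were checked as pairs by the correlation of deviations from group means. In tissue same-numbered samples correlated at -0.15 to 0.12 and were not taken as pairs. In sorted cells the 3 pairs correlated at 0.23 to 0.26, each best with its own number. The block changed no call of a member there, and calls of other genes with the block were not counted. Alternatives were another offset, floor, filter, quantile normalization, fits of single comparisons, no trend, a block by replicate number, the next brightest probe set, the rule of the methods (a ratio of medians over 2) and leaving out each sample. After seeing the data, pairs with *Foxa1* without tumors 1, 2 and 7 and signals relative to luminal markers were added.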

Additional observations from a re-analysis of the deposited data

Results flagged for a closer look

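The difference from control tissue changed between stages for 4 genes, by the direct test of tumors against hyperplasias in limma, where the shared control tissue cancels. Of all genes, 31.9% were lower in tumors than in large hyperplasias and 32% were lower than in small ones. *Pgr* had no called fall in hyperplasias. Tumors were lower than large hyperplasias by log2 differences of -0.63 for *Esr1*, -1.54 for *Pgr*, -2.0003 for *Foxa1* and -1.39 for *Cited1*. They were lower than small hyperplasias by -1.34 for *Esr1*, -2.50 for *Pgr*, -2.79 for *Foxa1* and -1.34 for *Cited1*. The dimmer probe set of *Esr1* had -0.01 against large hyperplasias (adjusted p = 0.97 from limma) and -0.88 against small ones (adjusted p = 0.0033). The share of luminal epithelium markers that moved in the first of these comparisons was 3 of 8, all higher in tumors, and all 7 adipocyte markers were lower. Their part in the differences was not tested. No sample of the groups of 4 or 5 stood apart from the rest of its group in any of the 7 genes by Dixon's test (21 sets of samples tested).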

How the results depend on the processing

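In tumors against control tissue and against small hyperplasias the counts of members called were within 1.5 times under every alternative, and leaving out 1 sample gave 4 lower in each case. In large hyperplasias against control tissue 2 members were lower, 1 with no offset, and 1 to 3 when 1 sample was left out. By the rule of the methods *Gata3* was not called (0 higher) in large or small hyperplasias. In small hyperplasias 1 was lower, 3 when only these 2 groups were fitted, 2 by the rule of the methods and 0 by the next brightest probe set. In tumors against large hyperplasias 4 were lower, 2 by the next brightest probe set, and 3 to 4 when 1 sample was left out. Between large and small hyperplasias 0 were lower, 1 with quantile normalization, 3 when only these groups were fitted and 1 by the next brightest probe set. In *Myc*-deficient cells 0 were higher, 1 (*Cited1*) by the rule of the methods. The numbers did not pair the tissue samples. With the replicate number as a block, tumors 6 to 11 added nothing, since no other tissue sample carries their numbers. The block thus set only tumors 1 to 5 against the hyperplasias. There 2 rather than 4 members were lower in tumors against large hyperplasias. *Esr1* was at -0.53 (adjusted p = 0.10 from limma) and *Cited1* at -0.93 (adjusted p = 0.19). Against small hyperplasias *Cited1* was at -0.87 (adjusted p = 0.21). The block changed no other call of a member. Of the pairs over tumors 5 passed, 2 by the next brightest probe set, 0 without the 2 farthest tumors and 2 to 6 when 1 tumor was left out. The r of *Tnfsf11* and *Greb1* turned to 0.17 by the next brightest probe set. Of the values of single genes and pairs, 33 lost and 4 gained a call when 1 sample was left out and 593 kept theirs. The causes were not tested. Signals near 30 limit what can be said of *Tnfsf11*, *Greb1* and the tumors low in *Pgr*, *Foxa1* and *Cited1*.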
